A study of Mus musculus with 12 samples.

Results

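The report describes the chromatin at 10 mouse genes that are known from lymphatic endothelium and are linked to the transcription factor Prox1. They are Flt4, Pdpn, Lyve1, Vegfc, Nr2f2, Sox18, Kdr, Itga9, Nrp2 and Ccl21a. A peak belongs to a gene when it overlaps the gene body or the 25 kb on either side of it, by the GENCODE M21 annotation of the mouse genome build mm10. By this rule 150 of the 176680 peaks in the deposited table belong to 9 of the 10 genes, and Ccl21a has no peak.

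Lymphatic endothelial cells line the vessels that return fluid from tissues to the blood. They arise mainly from venous endothelium, where SOX18 and the nuclear receptor COUP-TFII (Nr2f2) act upstream of Prox1, the homeodomain factor that sets and keeps lymphatic identity. The growth factor VEGF-C then signals through its receptor VEGFR3 (Flt4), with neuropilin 2 (Nrp2) as a co-receptor. Prox1 is also a factor of hepatocytes, and the cells studied here are fibroblasts on the way to a hepatocyte fate, not endothelial cells.

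Accessibility was read out by ATAC-seq. Its transposase, Tn5, cuts open DNA and tags the ends, and the reads pile up at accessible sites. All cells were primary mouse embryonic fibroblasts (MEFs) of wild-type C57BL/6N embryos at E13.5, transduced with lentivirus and collected after 2 days in 2 µg/ml doxycycline. Of the 12 libraries in 4 groups of 3, those labelled MEF carried only rtTA, the activator through which doxycycline switches on the transgenes, and those labelled Prox1_OE carried rtTA and Prox1. Neither of these groups was analysed here. Both groups compared here carried rtTA and 4in1, a hepatocyte reprogramming vector labelled LV.4TF, and differed in the added vector. The 4in1_GFP_OE cells (the GFP arm) received doxycycline-inducible GFP, and the 4in1_Prox1_OE cells (the Prox1 arm) received inducible FLAG-tagged mouse Prox1. The labels do not say whether replicates came from separate embryos or cultures.

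The deposited table gives, for each peak, the authors' mean of normalised reads over the 3 libraries of an arm, on a log2 scale. It holds no value per library, so the spread between replicates and the depth of each library are unknown. The difference used below is the log2 mean of the Prox1 arm minus that of the GFP arm. It is below 0 where the site was less accessible with Prox1. A peak was called when it stood on 1 of the 2 lists the authors deposited, the peaks enriched with GFP (lower with Prox1) or with Prox1 (higher with Prox1). Per the study's methods these had an adjusted p under 0.05 in the authors' own test. Peaks on neither list are given as values only. Of all such peaks 95% had differences between -0.55 and 0.48 (n = 65269), a range that the authors' test itself bounds and that is no replicate error. The arms are bulk samples, so a site open in fewer cells and a site less open in each cell cannot be told apart.

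Over all 176680 peaks the median difference was -0.42, and reads summed over peaks were 0.751 times as high in the Prox1 arm. Differences at single sites are to be read against this shift. Other choices of the zero gave shifts of -0.41 (equal totals), -0.26 (the 10% of peaks with the highest mean level) and -0.21 (promoter peaks). As a check of the vectors, 3 peaks over coding exons of Prox1 rose with Prox1, from 3.42 to 1632, from 13.8 to 2078 and from 16.1 to 6847 reads. The vector carries the same exons, so its DNA and the chromosomal gene cannot be told apart there. Of 10 fibroblast genes all had a promoter peak, but so did 12 of 12 lymphatic transcription factors and 9 of 12 pan-endothelial genes. Of 10 hepatocyte genes 1 had one, and of 5 blood genes 1. Promoter peaks thus do not set the fibroblast genes apart from the endothelial ones, and are no full check of the fibroblast label.

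The sites that the results turn on are shown here as 201-base windows of the + strand of GRCm38.p6, the assembly behind mm10, in lower case with motif matches in capitals. The first has the largest fall and the second the largest rise among called member peaks at or above the median level of all peaks. The others were chosen after the values were seen, as strong called sites of the ligand, the receptors and Pdpn and as the largest rise of any member. None overlaps an annotated untranslated region (UTR).
Nrp2 intron, chr1:62713136-62713336: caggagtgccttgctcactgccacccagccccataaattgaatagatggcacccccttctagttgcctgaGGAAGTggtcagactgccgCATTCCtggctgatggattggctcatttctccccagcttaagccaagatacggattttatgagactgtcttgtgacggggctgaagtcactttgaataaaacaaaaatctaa
Itga9 downstream, chr9:118920002-118920202: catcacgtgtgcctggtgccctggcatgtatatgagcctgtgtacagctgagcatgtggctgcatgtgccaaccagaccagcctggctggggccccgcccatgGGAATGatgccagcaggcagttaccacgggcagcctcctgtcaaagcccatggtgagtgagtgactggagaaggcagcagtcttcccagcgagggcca
Vegfc intron, chr8:54114674-54114874: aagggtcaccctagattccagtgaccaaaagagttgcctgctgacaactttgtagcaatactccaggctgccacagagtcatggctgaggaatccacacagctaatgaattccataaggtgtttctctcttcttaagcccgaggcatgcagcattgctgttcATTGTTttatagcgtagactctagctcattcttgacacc
Vegfc downstream, chr8:54190494-54190694: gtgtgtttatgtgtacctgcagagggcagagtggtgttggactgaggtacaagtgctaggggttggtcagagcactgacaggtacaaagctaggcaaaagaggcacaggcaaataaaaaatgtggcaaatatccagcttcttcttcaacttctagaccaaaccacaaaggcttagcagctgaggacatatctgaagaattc
Flt4 intron, chr11:49616352-49616552: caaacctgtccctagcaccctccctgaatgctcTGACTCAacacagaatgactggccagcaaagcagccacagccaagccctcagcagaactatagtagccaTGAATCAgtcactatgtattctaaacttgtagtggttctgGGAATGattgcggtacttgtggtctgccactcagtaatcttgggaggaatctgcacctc
Kdr intron, chr5:75935355-75935555: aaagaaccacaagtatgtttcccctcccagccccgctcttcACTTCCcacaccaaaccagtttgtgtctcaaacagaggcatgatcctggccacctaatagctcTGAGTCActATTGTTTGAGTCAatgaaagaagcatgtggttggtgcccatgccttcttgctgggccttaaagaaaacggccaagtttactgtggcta
Pdpn intron, chr4:143288921-143289121: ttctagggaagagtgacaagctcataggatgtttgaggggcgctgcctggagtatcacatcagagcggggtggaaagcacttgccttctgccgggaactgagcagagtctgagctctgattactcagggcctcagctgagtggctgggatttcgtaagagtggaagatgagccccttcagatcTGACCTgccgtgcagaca
The capitals are matches to the AP-1 motif TGANTCA, the TEAD motif GGAATG, the SOX motif AACAAT, the ETS motif GGAAGT and the nuclear receptor half-site AGGTCA, on either strand. In the Kdr window an AP-1 match, a SOX match and another AP-1 match lie within a few bases of each other, the last pair without a gap.

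Most called peaks at the 10 genes were lower with Prox1 as deposited. The lists themselves rest on the authors' zero. Counted by size, the balance depends on the zero. Before centring 38 member peaks had a difference of -1 or lower and 9 one of 1 or higher. After centring on the median of all peaks these counts were 9 and 15. Over all peaks such falls and rises went from 24.4% and 8.33% to 8.64% and 13.4% with the same centring. Of the 150 peaks, 76 (50.7%, 95% Wilson interval 42.7% to 58.6%) were on the GFP-enriched list and 17 (11.3%, 7.20% to 17.4%) on the Prox1-enriched list. Over all peaks these shares were 48.2% and 14.9%, both inside the intervals of the member peaks, so neither share stands apart from the genome at this number of peaks. The other 57 peaks were on neither list, with differences from -0.72 to 0.46. Intervals are over peaks, which are not replicates, and cover counting error only. Of the 150 peaks, 16 lie within 1 kb of another and are less independent still.

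The median difference of the member peaks was -0.50 (95% interval of the median over peaks -0.60 to -0.34), beside -0.42 for all peaks. Of the 150 peaks, 111 (74.0%) lay below 0, as did 72.3% of all peaks. Differences ran from -1.92 to 2.23, a wide range within so few genes. Of the 76 peaks on the GFP-enriched list, 72 lay below every one of the 4 shifts, so the direction of those 72 does not turn with the choice of zero. The other 4 are the promoter and a downstream peak of Itga9, a downstream peak of Nr2f2 and an intronic peak of Nrp2 at 64.1 kb. Relative to the median of all peaks the member median was -0.081.

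**Figure D1:**
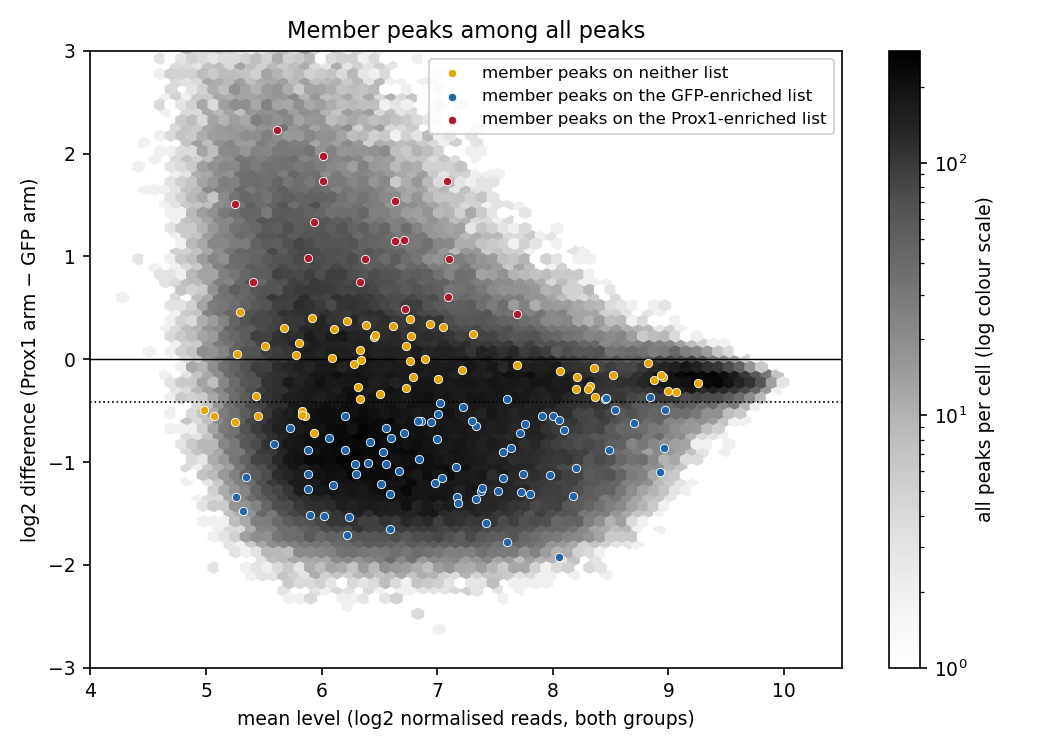
Log2 difference between the arms (Prox1 arm minus GFP arm) against mean level (log2 normalised reads over both arms), with all peaks as grey cells (log colour scale, peaks outside the axes not drawn) and the 150 member peaks as points coloured by list. The solid line is 0 and the dotted line the median of all peaks, -0.42. Member peaks lie within the range of the others, which is wider, and the 17 on the Prox1-enriched list sit mostly at low mean levels.

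Strong and weak member peaks split differently, as peaks did genome-wide. Of the 81 member peaks at or above the median level of all peaks (about 105 reads), 48 (59.3%) were on the GFP-enriched list and 5 (6.17%) on the Prox1-enriched list, against 55.3% and 6.49% of all peaks of that level. Of the 69 weaker ones, 28 (40.6%) and 12 (17.4%) were, against 41.1% and 23.2%. Thus 12 of the 17 member peaks that rose were weak sites. Mean levels of the member peaks ran from 4.98 to 9.25 on the log2 scale (median 6.77), within the range of 4.04 to 11.74 of all peaks.

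By role, the receptors Flt4, Kdr and Nrp2 had 31 of 54 peaks on the GFP-enriched and 3 on the Prox1-enriched list (median difference -0.50). The ligand Vegfc had 3 and 1 of 9 (median -0.50). The transcription factors Nr2f2 and Sox18 had 7 and 0 of 17 (median -0.31), and the surface and adhesion proteins Pdpn, Lyve1 and Itga9 had 35 and 13 of 70 (median -0.55). Over all peaks 48.2% were on the GFP-enriched and 14.9% on the Prox1-enriched list. Differences between these roles were not tested. The long genes Itga9 and Nrp2 hold 80 of the 150 peaks, with 39 (48.8%) and 10 (12.5%) on these lists, and the other genes hold 70, with 37 (52.9%) and 7 (10.0%).

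**Figure D2:**
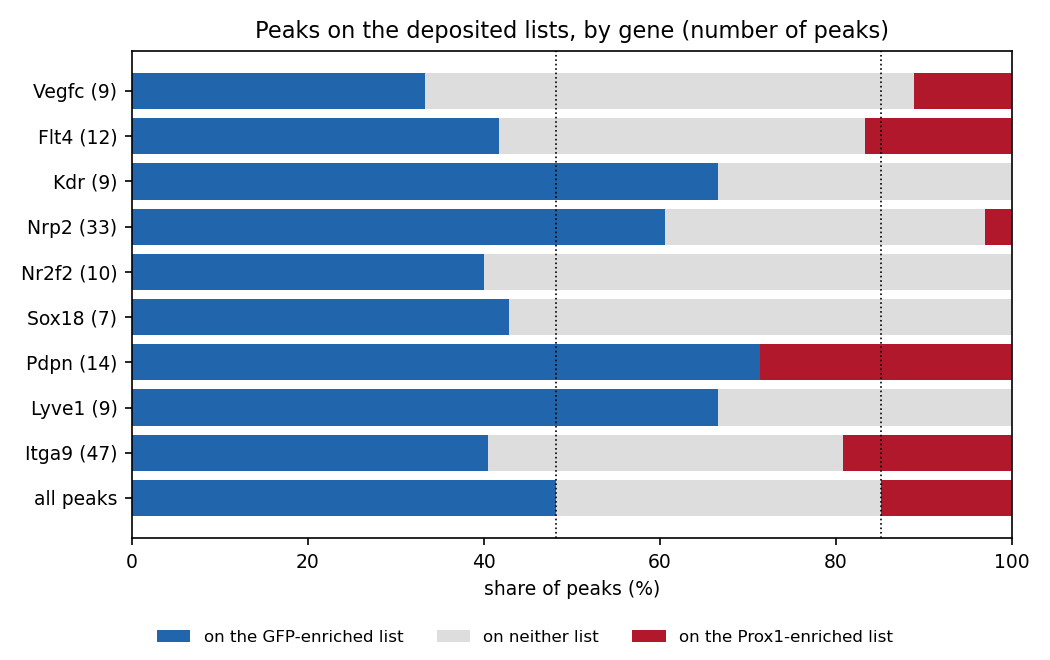
Share of each gene's peaks (percent, number of peaks in brackets) on the GFP-enriched list (blue), the Prox1-enriched list (red) or neither (grey), with all 176680 peaks as the lowest bar and dotted lines at their shares. Pdpn has the highest blue share, 71.4%, and Kdr, Lyve1, Nr2f2 and Sox18 have no red share.

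Vegfc encodes VEGF-C, the growth factor that drives sprouting of lymphatic vessels, and lies on chromosome 8 (54077606 to 54187096, + strand). Its promoter peak was strong in both arms, with 502 reads in the GFP arm and 435 in the Prox1 arm, a difference of -0.21 on neither list. The intronic site 37.0 kb downstream of the start, shown above, fell from 413 to 164 reads, a difference of -1.33. The promoter therefore kept most of its reads while an intronic site of like strength in the GFP arm lost more than the median peak.

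Another 2 Vegfc peaks fell, which makes 3 of 9 (33.3%, beside 48.2% of all peaks). One lies 5.3 kb upstream (257 to 142 reads, -0.86) and the other 20.6 kb into the gene (80.6 to 37.3 reads, -1.11). Intronic sites at 19.0, 36.0, 75.7 and 85.9 kb had differences of -0.72, -0.50, -0.11 and -0.29 and were on neither list. A single Vegfc peak rose, downstream of the gene, from 17.2 to 81.0 reads. Its difference of 2.23 was the highest of the 150 peaks, but the site was weak, below the median level.

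Flt4 encodes VEGFR3, the main receptor of VEGF-C on lymphatic endothelium, and lies on chromosome 11 (49609263 to 49652739, + strand). Its promoter peak, over coding sequence 0.6 kb from the start, had 278 reads with GFP and 257 with Prox1, a difference of -0.12 on neither list. In the first 12.2 kb downstream of the start, neighbouring intronic sites moved in opposite directions. The site at 4.3 kb rose from 108 to 165 reads (0.61), the strong site at 7.2 kb fell from 504 to 329 (-0.62), and the site at 12.2 kb fell from 137 to 55.4 (-1.31).

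In all, 5 of the 12 Flt4 peaks fell (41.7%) and 2 rose (16.7%), near the 48.2% and 14.9% of all peaks, and the median difference was -0.15. The second rise lay 54.0 kb from the start, beyond the end of the gene, from 56.2 to 110 reads (0.97). Only 5 of the 12 peaks have Flt4 as the gene of the nearest start, since Scgb3a1 lies close to the 3' end. The fall of -0.43 over a coding exon at 27.4 kb was about as large as the shift of all peaks.

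Kdr encodes VEGFR2, the principal VEGF-A receptor of endothelium, which also binds processed VEGF-C, and lies on chromosome 5 (75932827 to 75978458, - strand). Its promoter peak had 458 reads with GFP and 447 with Prox1 (-0.035, on neither list). Of its 9 peaks, 6 fell (66.7%) and 0 rose, beside 48.2% and 14.9% of all peaks. The gene's median of -1.09 was the lowest of the 9 genes. The gene of the nearest start was Kdr for only 4 of the 9 peaks, with Gm25374 nearest to the others. Genome-wide, 28.2% of all promoter peaks and 51.1% of all others were on the GFP-enriched list. How often a gene has an uncalled promoter among called distal sites was not counted.

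The strong site 11.98 kb upstream fell from 662 to 310 reads (-1.09). The intronic site shown above, 43.0 kb from the start, fell from 207 to 81.8 reads (-1.34), and the intronic site at 37.0 kb from 162 to 94.5 (-0.78). The other 3 falls lie beyond the 3' end, at 50.5, 55.6 and 56.7 kb, with differences of -1.16, -1.28 and -1.21. All 6 lay below each of the 4 shifts. Summed over its peaks, Kdr had 0.589 times as many reads in the Prox1 arm, beside 0.751 over all peaks. This was the lowest ratio of the 9 genes, and strong peaks weigh most in such a sum.

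Nrp2 encodes neuropilin 2, a co-receptor for VEGF-C and for class 3 semaphorins, and lies on chromosome 1 (62703285 to 62818695, + strand). It had 20 falls and 1 rise among 33 peaks, shares of 60.6% and 3.03% beside 48.2% and 14.9% of all peaks. Its promoter peak, over the 5' UTR, fell from 586 to 415 reads (-0.50), about the median of the gene's peaks (-0.50). The largest fall of all member peaks was the intronic site 9.5 kb downstream of the start, shown above, from 420 to 111 reads. This is a difference of -1.92, or 3.79-fold lower, and -1.51 relative to the median of all peaks.

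Further falls were spread over the introns of Nrp2. The sites at 16.7 and 18.4 kb fell by 1.28 and 1.13 on the log2 scale, that at 60.3 kb from 301 to 123 reads (-1.29), and that at 88.4 kb from 301 to 87.6 (-1.78). The 1 rise lay over a coding exon at 92.1 kb, from 61.9 to 137 reads (1.15), close to that large fall. Some intronic sites, at 23.6, 32.5 and 39.7 kb, had small positive differences of 0.24, 0.047 and 0.40 and were on neither list. The gene of the nearest start was Nrp2 for only 6 of the 33 peaks, with Gm29083, Gm37121 and Gm4208 nearest to the others.

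Nr2f2 encodes COUP-TFII, the nuclear receptor of venous endothelium, and lies on chromosome 7 (70351944 to 70366735, - strand). It is also expressed in mesenchymal cells. All its 10 peaks had negative differences, but most were small, with a median of -0.31. Only 3 of the 10 lay below the median of all peaks (-0.42). Of the 10, 4 were called lower (beside 48.2% of all peaks) and 0 higher. Its peaks were strong, with a median mean level of 8.34 on the log2 scale.

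The gene has 2 annotated starts, and their sites differed. The promoter peak with the higher level, at the inner start, had 338 reads with GFP and 319 with Prox1 (-0.086, on neither list). The peak in the 5' UTR at the outer start fell from 232 to 90.6 reads (-1.36), and an intronic site 1.5 kb from that start fell from 247 to 132 (-0.90). The intronic site between the starts had the highest mean level over both arms of all member peaks, with 660 and 562 reads (-0.23, on neither list). Of the distal sites, one 28.7 kb downstream fell from 397 to 190 reads (-1.06) and one 25.5 kb downstream from 397 to 303 (-0.39).

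Sox18 encodes an SRY-box factor that induces Prox1 in venous endothelium, and lies on chromosome 2 (181669836 to 181671640, - strand). Its promoter peak, over coding sequence, had 138 reads in the Prox1 arm and 108 in the GFP arm (0.34). As deposited it was the only one of the 9 with a difference above 0, whereas 6 of the 9 lie above 0 with the zero at the median of all peaks. It was on neither list. Of the 7 Sox18 peaks 3 fell (42.9%, beside 48.2% of all peaks) and 0 rose. The site 7.35 kb upstream fell from 465 to 253 reads (-0.88) and that 4.0 kb upstream from 285 to 195 (-0.55), while the site at 2.1 kb had 145 and 172 reads (0.25, on neither list). The strong upstream peaks of -0.16 and -0.31 lie over exons of the neighbouring genes Tcea2 and Rgs19.

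Pdpn encodes podoplanin, a surface glycoprotein of lymphatic endothelium that fibroblasts also carry, and lies on chromosome 4 (143267431 to 143299564, - strand). It was the only one of the 9 genes with every peak on a list, 10 lower (71.4%) and 4 higher (28.6%) of 14, beside 48.2% and 14.9% of all peaks. Its promoter peak, over the 5' UTR, fell from 338 to 210 reads (-0.69). An intronic site 20.9 kb from the start, with 645 reads in the GFP arm, fell to 355 (-0.86), and the intronic site shown above, at 10.4 kb, fell from 319 to 129 (-1.31). The largest fall, at a site 43.0 kb from the start and past the end of the gene, was from 146 to 46.5 reads (-1.65).

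The rises at Pdpn lay among the falls. The intronic sites at 13.0 and 30.9 kb rose from 50.9 to 147 reads (1.53) and from 19.8 to 56.3 (1.51). Both had been weak in the GFP arm. The others were smaller, at 40.7 kb from 175 to 238 reads (0.44) and 11.97 kb upstream from 87.7 to 123 (0.49).

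Lyve1 encodes a hyaluronan receptor of lymphatic endothelium and some macrophages, and lies on chromosome 7 (110850607 to 110863239, - strand). Its promoter peak, over the 5' UTR, was the weakest promoter of the 9, and fell from 61.7 to 34.7 reads (-0.83). The largest fall lay over a UTR at the 3' end of the gene, from 257 to 85.2 reads (-1.59), and an intronic site 3.1 kb from the start fell from 88.5 to 31.0 (-1.51). In all 6 of 9 peaks fell (66.7%, beside 48.2% of all peaks) and 0 rose. The 3 peaks on neither list include a pair that overlap exons of the neighbours Rnf141 and Mrvi1.

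Itga9 encodes the integrin alpha 9 subunit, which is required for the formation of lymphatic valves, and is the longest of the genes (chromosome 9, 118606690 to 118901003, + strand). Its promoter peak, over the 5' UTR, fell from 517 to 402 reads. This difference of -0.36 was smaller than the shift of all peaks, and with the zero at the median of all peaks or at equal totals it turned positive (0.055 and 0.050). Of its 47 peaks 19 fell (40.4%, beside 48.2% of all peaks) and 9 rose, which is 9 of the 17 rises of all members. Its Prox1-list share of 19.1% is set beside 14.9% of all peaks.

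The largest rise among member peaks at or above the median level was the site downstream of Itga9 shown above, from 62.8 to 209 reads (1.73, or 3.33-fold higher). The next site along fell from 319 to 212 reads (-0.59), so sites within 1 kb moved in opposite directions. Within the introns, weak sites at 34.1 and 132.2 kb from the nearest start rose from 29.8 to 98.9 reads (1.73) and from 26.03 to 103 (1.98). The largest intronic falls of the gene were -1.27 and -1.21, at 5.9 and 23.6 kb from the nearest of its starts. For 23 of the 47 peaks Itga9 itself had the nearest start.

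Ccl21a encodes a chemokine by which lymphatic endothelium attracts dendritic cells, and lies on chromosome 4 (42772860 to 42773993, - strand). No peak of the table lies within 100 kb of it, and the nearest is 103 kb away. The mouse genome holds near-identical copies of this gene, and how well reads map there was not tested. No value can be given for it.

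**Figure D3:**
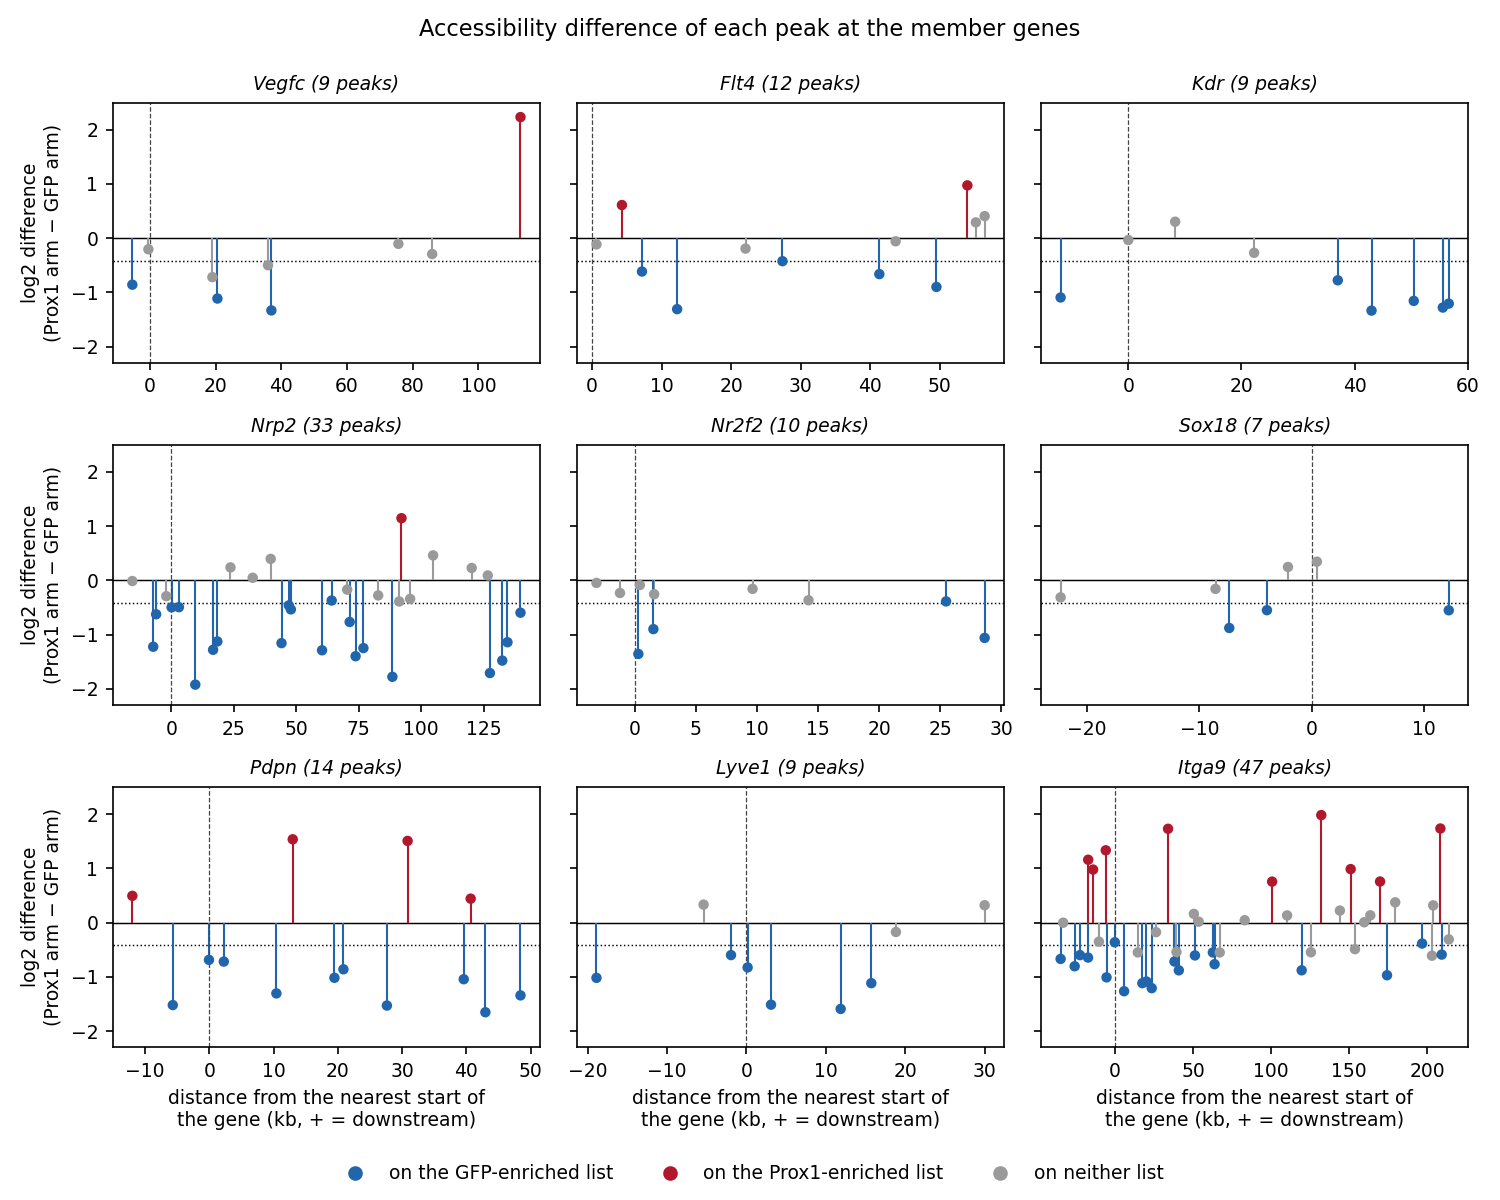
Log2 difference (Prox1 arm minus GFP arm) of each of the 150 member peaks against its distance from the nearest annotated start of its gene (kb, positive downstream), coloured by list. The solid line is 0, the dotted line the median of all peaks, and the dashed line the start. Rises and falls lie side by side at Pdpn and Itga9, while at Kdr the 6 falls flank a promoter near 0.

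In 7 of the 9 genes the promoter peak had a higher difference than the median of the gene's peaks, and in Lyve1 and Nrp2 it was that median. Genome-wide, promoter peaks also had a higher median (-0.21) than the others (-0.49). At Itga9 the gap was small, -0.36 against a gene median of -0.39. At Nr2f2 the mean of all peaks within 1 kb of a start (-0.48) lay below the gene's median (-0.31). Ranked by level in the GFP arm, the promoters ran from Nrp2 (586 reads) through Itga9 (517), Vegfc (502), Kdr (458), Nr2f2 (338), Pdpn (338), Flt4 (278) and Sox18 (108) to Lyve1 (61.7). Without a spread over libraries, neighbours in this order cannot be told apart by a test. In the Prox1 arm Kdr stood first (447), followed by Vegfc (435), Nrp2 (415) and Itga9 (402). These windows are all 201 bases wide. Their GC content ran from 49.3% (Lyve1) to 79.6% (Nr2f2), and its effect on the levels was not tested.

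Of these 9 promoter peaks, 4 (Pdpn, Lyve1, Itga9 and Nrp2) were on the GFP-enriched list and 0 on the Prox1-enriched list, with 1 peak taken per gene. Counting every promoter peak of the members adds the called peak at the outer start of Nr2f2, which gives 5 of 10 (50.0%) and 0 of 10, beside 28.2% and 8.34% of all promoter peaks. The median difference of these 10 was -0.28, beside -0.21 for all promoter peaks, and that of the 9 was -0.21. With the mean of all peaks within 1 kb of a start in place of the strongest, the median over the 9 genes was -0.36, and Nr2f2 moved from -0.086 to -0.48. With the zero at the median of all promoter peaks (-0.21), the promoters of Pdpn (-0.69), Lyve1 (-0.83), Nrp2 (-0.50) and Itga9 (-0.36) stayed below it. With so few promoters such a share is imprecise (95% Wilson interval 23.7% to 76.3% for the 5 of 10).

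**Figure D4:**
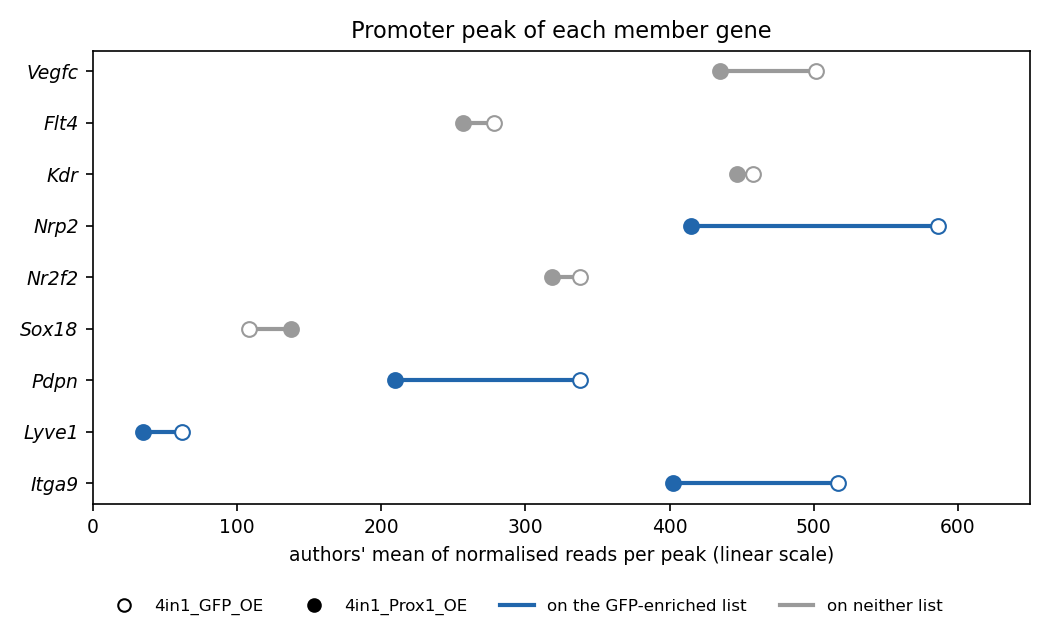
Authors' mean of normalised reads at the promoter peak of each gene (linear scale) in 4in1_GFP_OE (open circles) and 4in1_Prox1_OE (filled circles), with blue for peaks on the GFP-enriched list and grey for peaks on neither list. Nrp2, Pdpn, Itga9 and Lyve1 are blue, and as deposited Sox18 alone has more reads in the Prox1 arm (6 of the 9 would with the zero at the median of all peaks). The means carry no error because no value per library was at hand.

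By position, 41 of the 82 member peaks in introns fell and 10 rose, and 17 and 4 of the 33 downstream did. Upstream 10 and 2 of 20 did. In UTRs 6 of 8 fell and 0 rose, and over coding exons 2 of 7 fell and 1 rose. Over all peaks outside promoters 51.1% fell and 15.8% rose, and over all promoter peaks 28.2% and 8.34% did. Most of the UTR peaks, some of the coding exon peaks and an upstream peak are promoter peaks already counted above. The UTR and exon classes are small, and no share over all peaks was computed for them.

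The windows of the member peaks were searched for short motifs on both strands, as a description of their letters and not of binding. An AP-1 match was in 34 windows (22.7%, against 28.8% of all peaks), and 25 of these 34 peaks (73.5%) were on the GFP-enriched list. Of the 116 member peaks without one, 44.0% were. Genome-wide the same shares were 67.0% with and 40.6% without an AP-1 match. The falls at Kdr, Flt4 and Nrp2 with AP-1 matches therefore belong to a class of sites that fell often everywhere.

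A TEAD match was in 32 member windows (21.3%, against 20.1% of all), and 21 of these (65.6%) fell, as did 57.8% of all peaks with one. The window of the largest fall, in Nrp2, holds a TEAD and an ETS match and no AP-1 match, and the window of the largest strong rise, at Itga9, holds a TEAD match. The nuclear receptor half-site was in 17 member windows (11.3%, against 13.7%), the ETS motif in 23 (15.3%, against 14.3%), the SOX motif in 10 (6.67%, against 8.62%) and the GATA motif AGATAA in 10 (6.67%, against 6.72%). The forkhead motif TGTTTAC was in 1. The ETS, SOX and GATA factors are known regulators of endothelial genes, and of the member windows with these motifs 9 (39.1%), 3 (30.0%) and 7 (70.0%) were on the GFP-enriched list. Over all peaks with these motifs the shares were 55.5%, 51.8% and 53.1%, so the few ETS and SOX members lay below and the GATA members above them, with no test made.

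A consensus motif of Prox1, allowing 1 mismatch, was in 0 of the 150 member windows and in 538 (0.305%) of all. No match means only that these letters are not in these windows. The member windows had a median GC content of 51.2%, against 48.8% of all. Within the members it was 49.3% for peaks that fell and 54.7% for those that rose, and among all peaks 46.8% and 49.3%.

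Other genes of the pathway were read by the same rule. The VEGF-C axis list held 12 further ligands, receptors, proteases and semaphorins, with 235 peaks, of which 125 (53.2%) fell and 28 (11.9%) rose (median difference -0.51), beside 48.2% and 14.9% of all peaks. Of the 11 promoter peaks found, 5 fell and 0 rose, beside 28.2% and 8.34% of all promoter peaks. They were Flt1, the VEGF-A receptor VEGFR1, from 430 to 253 reads (-0.77), Sema3g (-0.59), Adamts3, the protease that matures VEGF-C (-0.52), Vegfd, the other ligand of VEGFR3 (-0.51), and Vegfa (-0.44). The promoters of Vegfb, Plxnd1 and Sema3f were within 0.075 of 0 and on neither list. Nrp1, the paralogue of Nrp2, had no promoter peak, and 18 of its 31 peaks fell and 2 rose.

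The list of 12 lymphatic transcription factors had the lowest share of falls of the 3 pathway lists. Of its 134 peaks 49 (36.6%) fell and 29 (21.6%) rose (median -0.19), against 48.2% and 14.9% of all peaks, and without the gene Prox1, a setting added after the data were seen, the shares were 36.3% and 20.97%. The promoter peak of Prox1 itself fell from 455 to 211 reads (-1.11), and that of Nr2f1 fell by 0.40 on the log2 scale, a fall that turns positive with the zero at the median of all peaks. That of Sox7, a paralogue of Sox18, rose from 240 to 335 reads (0.48). The genes of the list differed. Nfatc1, with the most peaks, had 14 falls and 4 rises among 32 and Foxc1 4 falls and 0 rises among 10, while Gata2, which acts in lymphatic valves, had 3 falls and 6 rises among 12 and Tbx1 1 fall and 4 rises among 10.

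The 16 genes of lymphatic adhesion, junctions and valves had 173 peaks, with 79 (45.7%) falls and 21 (12.1%) rises (median -0.38), against the same shares of all peaks. Of 13 promoters 6 fell and 1 rose, against the 28.2% and 8.34% of all promoter peaks. The falls include Angpt1, a ligand of the receptor TIE2, from 241 to 92.5 reads (-1.38), Gja1, the gap junction protein connexin 43 (-1.27), and S1pr1, a sphingosine phosphate receptor (-1.08), at which all 8 peaks fell. The rise was at Reln, which encodes the secreted protein reelin, from 176 to 317 reads (0.85).

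**Figure D5:**
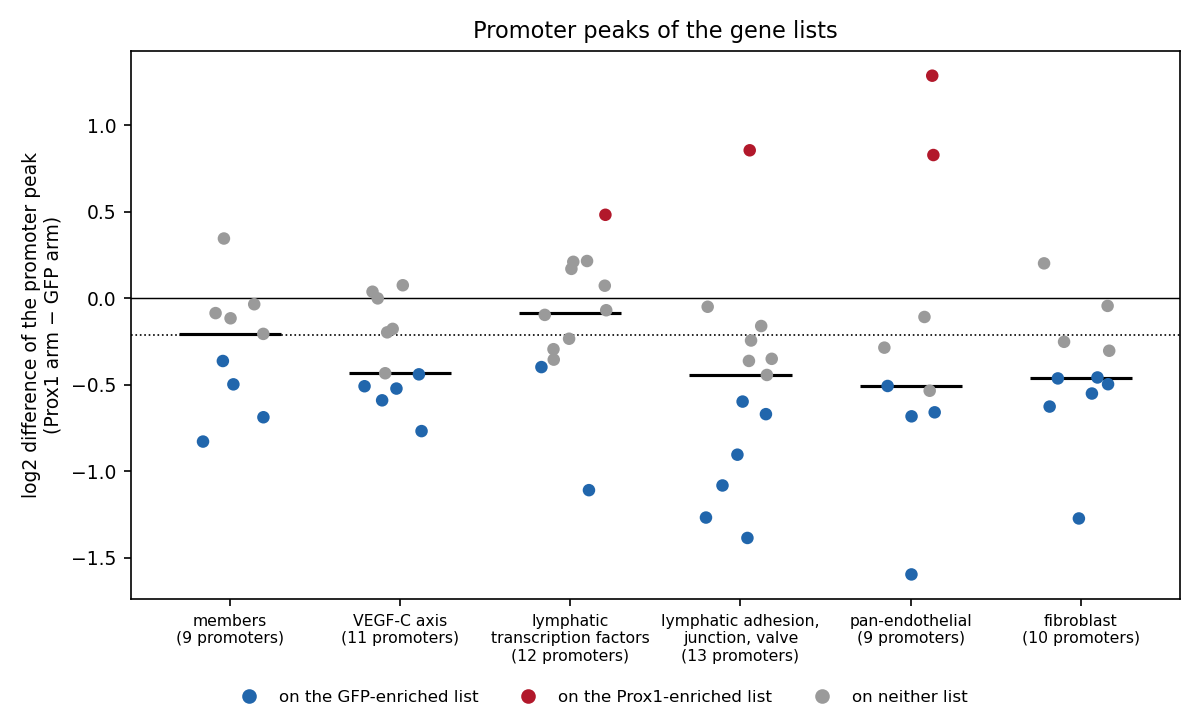
Log2 difference (Prox1 arm minus GFP arm) of the promoter peak of each gene in 6 gene lists, with points coloured by list membership and a bar at each list's median. The solid line is 0 and the dotted line the median of all promoter peaks, -0.21. The member promoters lie between -0.83 and 0.34 and the lymphatic transcription factors have the highest of the 6 medians, -0.083.

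Markers of other cell types moved as well, and their part in the results above was not tested. Of 152 peaks at the 10 fibroblast genes, 65.8% fell and 7.89% rose (median -0.73), and 6 of 10 promoters fell and 0 rose, with Prrx1 lowest (-1.27). At 12 pan-endothelial genes, 42.7% of 178 peaks fell and 12.4% rose (median -0.33), and 4 of 9 promoters fell and 2 rose. Over all peaks 48.2% fell and 14.9% rose, and over all promoter peaks 28.2% and 8.34%. The promoter of Pecam1 (CD31) fell from 304 to 101 reads (-1.59), while those of Etv2 (1.28) and Esam (0.83) rose, and Cdh5, Emcn and Robo4 had no promoter peak. Of 42 peaks at 10 hepatocyte genes, 19.0% fell and 42.9% rose, and of 47 at 5 blood genes, 48.9% and 10.6% did. The member genes thus had a lower share of falls than the fibroblast genes and a higher one than the pan-endothelial genes, and no test of these differences was made.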

How the data were processed

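Per the study's methods and the submitters' processing notes, the authors checked reads with FastQC 0.11.8, trimmed them with Trimmomatic 0.38, aligned them to mm10 with Bowtie2 2.3.4.3, cleaned them with SAMtools 1.10 and Picard 2.18.16, corrected for Tn5 insertion bias, and filtered with bedtools 2.27.1. The methods name MACS2 (2.1.2 in the notes) as peak caller and the reporting summary Genrich, so the caller is uncertain. Whether peaks were called per library or on pooled reads is not given in the sources used here. DiffBind 3.4.11 then counted and normalised reads per peak. The authors deposited log2 mean normalised reads per group of 3 libraries and over both groups. The table also holds their log2 fold change, p-value and FDR from DESeq2, which were not used. The 2 peak lists give coordinates only, and every interval is a row of the table. All differences depend on the authors' normalisation, which fixes where 0 lies.

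Differences of group means, counts on the lists, Wilson intervals and order-statistic intervals of medians (95%) were computed with Python 3.11.15, numpy 2.4.6, pandas 2.3.3 and scipy 1.17.1. The overlap of peaks with loci, the distance to starts and the motif search were checked on simulated data, the intervals and counts were not. No test was run, because no value per library was at hand, and depth per library is unknown. A promoter peak is the peak of highest mean level within 1 kb of a start of the gene. Named peaks were each gene's promoter peak and, at or above the median level, its largest fall and rise, and other peaks named were chosen after their values were seen. Chromosome names matched for 21 of 21 chromosomes, and all peaks lay inside them. The members, gene lists and motifs were chosen with earlier results of these data known. Motif consensus letters came from general knowledge, not from the study's matrices.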

Additional observations from a re-analysis of the deposited data

How the results depend on the processing

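No paired analysis was possible because only group means were at hand. Leaving out single replicates and a fit with the replicate number as a block were planned and, without values for each library, not run. Counting all peaks with a difference of -1 or lower in place of the GFP-enriched list gave 25.3% of member peaks (24.4% of all), or 6.00% after centring on the median of all peaks (8.64% of all). A difference of 1 or higher gave 6.00% in place of the Prox1-enriched list (8.33% of all), or 10.0% after the same centring (13.4% of all), so that centred large rises (15 peaks) outnumbered large falls (9 peaks). The median of member peaks, -0.50, became -0.081 centred on all peaks, -0.086 at equal totals, -0.28 centred on promoter peaks and -0.24 on the 10% of peaks with the highest level. The median of the 9 promoters, -0.21, became 0.21, 0.21, 0.0084 and 0.057 in the same order. With the mean of all peaks within 1 kb of a start it was -0.36. The Itga9 promoter, the only called one to change sign, reversed to 0.055 and 0.050 under the first and second centring. The uncalled promoters of Flt4, Vegfc, Nr2f2 and Kdr turned positive under all 4 centrings, to 0.30, 0.21, 0.33 and 0.38 centred on all peaks. These moves follow from the settings, which ask for a larger change, shift every peak or add the outer promoter peak of Nr2f2. Other loci (gene body alone, 10 kb or 100 kb), a filter on low peaks and a nearest-start rule moved the shares and the median of member peaks by less than their intervals, as 16 added reads did the median. So did leaving out each gene in turn, with 47.9% to 55.3% on the GFP-enriched list, 7.77% to 13.7% on the Prox1-enriched list and medians from -0.54 to -0.48. The share that rose was lowest without Itga9.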

Other observations

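Peaks from 25 to 100 kb outside the 10 genes, which the 100 kb setting adds to the member peaks, numbered 135. Of these, 69 (51.1%) were on the GFP-enriched list and 12 (8.89%) on the Prox1-enriched list, beside 48.2% and 14.9% of all peaks, or 51.1% and 15.8% of all peaks outside promoters. The counts by gene are small. Around Vegfc 6 of 8 such peaks fell, with a median difference of -1.04, and around Nr2f2 8 of 12 fell, with a median of -0.93, whereas around Pdpn 4 of 13 fell, with a median of -0.090. Around Itga9, 6 of 22 fell and 4 rose.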
